A study of Mus musculus with 154 samples.

Results

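Mice that carried A/J-derived chromosomes 14 and 5 together were compared with mice that carried either chromosome alone and with the host strain. The samples were chosen by their strain labels and came to 40 liver RNA-Seq libraries, 26% of those of the series, namely 5 of (B6.A5 X B6.A14)F1, the double strain, 8 of (B6 X B6.A14)F1, the Chr 14 strain, 7 of (B6.A5 X B6)F1, the Chr 5 strain, and 20 of C57BL/6J (B6), the control. A chromosome substitution strain is a B6 mouse in which 1 chromosome pair comes from the donor strain A/J, and its F1 offspring are heterozygous for that chromosome on an otherwise B6 genome. Labels name the sire first, so chromosome 5 came from the sire and chromosome 14 from the dam in every substituted mouse used here, and no reciprocal cross is among them. The mice of all 4 strains were males of 5 weeks, fasted overnight, and each library is the caudate lobe of the liver of 1 mouse. Because every A/J chromosome was heterozygous, only dominant or partly dominant effects can be seen, and a dam with the A/J chromosome 14 cannot be told apart from the chromosome itself.

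In a substitution strain, a gene on the donor chromosome may differ in its own regulatory sequence, in which case it acts in cis, while a gene elsewhere can differ through the products of the donor chromosome, in trans. If 2 substituted chromosomes act independently, the log2 change in the double strain equals the sum of the changes in both single strains. The interaction, or epistatic, term is the difference between the double strain and that sum. A positive term means a level above the sum and a negative term a level below it, also where neither differs from B6.

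Raw read totals were 6752637 to 25630807 in B6, 12421787 to 23161327 in the Chr 14 strain, 6059667 to 26335513 in the Chr 5 strain and 11677026 to 17411218 in the double strain. Levels are given in CPM, the counts of a gene scaled to a common library total, and log2 fold changes and their standard errors (SE) come from the edgeR quasi-likelihood fit to all 13289 genes, with 5 surrogate variables for unlabelled variation and adjusted p-values by Benjamini-Hochberg. Genes with an adjusted p under 0.05 are said to have passed the threshold. In bulk libraries, fewer cells of a type and less RNA per cell cannot be told apart. The 12 hepatocyte markers summed to 105000 to 165000 CPM in B6, 61700 to 131000 in the Chr 14 strain, 108000 to 149000 in the Chr 5 strain and 116000 to 135000 in the double strain, so that the labelled tissue was borne out in all 4 strains and the low sums were in the Chr 14 strain. The first double mouse stood apart from the other 4 in the major urinary protein genes described below. Its level of the Y-linked gene Ddx3y, at 129.6 CPM beside 150.2, 186.1, 165.6 and 152.3 in the other double mice and 121.8 to 171.7 in B6, was that of a male, and 1 mouse of another strain in the fit, at 0.86 CPM, went against its listed sex.

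The label check came from genes that mark each chromosome. Rprl3 (ribonuclease P RNA-like 3, chromosome 8, 3803069 to 3803358, minus strand) lies on neither substituted chromosome, and resembles Rpph1, the RNA of the tRNA-processing enzyme RNase P, which is on chromosome 14. The first 240 bases of both transcripts are shown because the level of Rprl3 separated all mice with A/J chromosome 14 from those without it. Capitals mark the bases that differ, or have no partner, in an alignment of both GENCODE vM21 transcripts (mm10), of which 246 of 319 positions were identical.
Rpph1: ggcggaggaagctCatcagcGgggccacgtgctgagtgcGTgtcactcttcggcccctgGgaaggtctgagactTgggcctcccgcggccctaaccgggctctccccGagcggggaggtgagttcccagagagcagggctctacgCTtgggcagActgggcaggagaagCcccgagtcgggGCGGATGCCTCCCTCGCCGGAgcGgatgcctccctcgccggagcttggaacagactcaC
Rprl3: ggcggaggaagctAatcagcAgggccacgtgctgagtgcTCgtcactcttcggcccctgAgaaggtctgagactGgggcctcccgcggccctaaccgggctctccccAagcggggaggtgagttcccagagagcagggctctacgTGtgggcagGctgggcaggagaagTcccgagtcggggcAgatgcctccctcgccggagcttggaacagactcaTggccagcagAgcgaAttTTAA
The longest identical stretch was 37 bases, which is shorter than the reads of the study. How reads were split between both genes was not tested, so that split is uncertain.

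Rprl3 had 0 to 9 counts in B6 and 0 to 4 in the Chr 5 strain, against 1071 to 1892 in the Chr 14 strain and 405 to 1515 in the double strain. The double mice had 106.4, 29.5, 45.4, 102.8 and 69 CPM. No mouse with chromosome 14 overlapped a mouse without it. As a share of Rpph1 counts, Rprl3 was 5.26 to 6.03% in the double strain, 5.33 to 7.32% in the Chr 14 strain and at most 0.0326% in B6 and the Chr 5 strain, while Rpph1 itself did not pass the threshold in the double strain (log2 fold change against B6 -0.35, SE 0.24, adjusted p = 0.445 by edgeR with Benjamini-Hochberg). The interaction term of Rprl3 was -0.25 (SE 1.06). In the rest of the series, Rprl3 counts were as high in the strains with A/J chromosome 4, with 606 to 1138 in (B6.A4 X B6.A17)F1, so the gene marks chromosome 14 only among the 4 strains compared here.

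Genes on chromosome 5 with a high level in the Chr 5 strain were also high in the double strain. Abhd1 (chromosome 5, 30950066 to 30955091) is a hydrolase-family gene annotated as a processed transcript, and its exons overlap Preb on the other strand. It measured 25.5, 22.1, 23.7, 21.6 and 19.8 CPM in the double mice, with a range of 20.7 to 30.4 in the Chr 5 strain, 1.97 to 5.04 in B6 and 2.68 to 4.16 in the Chr 14 strain. All mice with chromosome 5 lay above all mice without it. Its log2 fold change against B6 was 2.81 (SE 0.13) in the double strain and 2.86 (SE 0.11) in the Chr 5 strain, and the interaction was 0.06 (SE 0.21). Gbp11, of the interferon-inducible guanylate-binding protein family and annotated as a polymorphic pseudogene, had 14.7, 19.4, 21.1, 31.8 and 19.4 CPM in the double mice against 1.28 to 4 in B6. Slc15a4, a lysosomal peptide and histidine transporter, had 68.4, 66.8, 54.9, 59.5 and 82.9 against 18.3 to 36.4. Both were separate from B6 and the Chr 14 strain in every mouse, with log2 fold changes of 3.08 (SE 0.16) and 1.31 (SE 0.1). Pebp1, an inhibitor of RAF kinase signaling, was 0.77 (SE 0.06) higher than B6 on the same scale, at 89 to 116.4 CPM in double mice and 45.8 to 64.9 in B6.

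Chromosome 14 genes changed by less. Arhgef40 (chromosome 14, 51984719 to 52006251), a guanine nucleotide exchange factor that overlaps Zfp219 on the other strand, had 15.6, 14.8, 11.9, 13.4 and 14.9 CPM in the double mice, 12.7 to 18.7 in the Chr 14 strain, 6.9 to 10.8 in B6 and 7.28 to 9.76 in the Chr 5 strain. The strains with and without the chromosome did not overlap. The log2 fold change against B6 was 0.74 (SE 0.1, adjusted p = 2.37e-09, edgeR with Benjamini-Hochberg) in the double strain and 0.85 (SE 0.09) in the Chr 14 strain. Socs4, a suppressor of cytokine signaling, rose by 0.45 (SE 0.07) in the double strain, and its 30.6 to 36.4 CPM overlapped B6 at 18.7 to 31.6. Among genes that fell, Ccdc122, which overlaps Lacc1 on the other strand, was 5.55, 4.52, 5.12, 3.87 and 4.24 CPM in the double mice, below all 20 B6 mice at 6.13 to 9.77, and Pcdh17, a protocadherin adhesion molecule, was 1.56 to 3.89 CPM against 3.59 to 9.72, with log2 fold changes of -0.72 (SE 0.12) and -1.09 (SE 0.19).

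**Figure D1:**
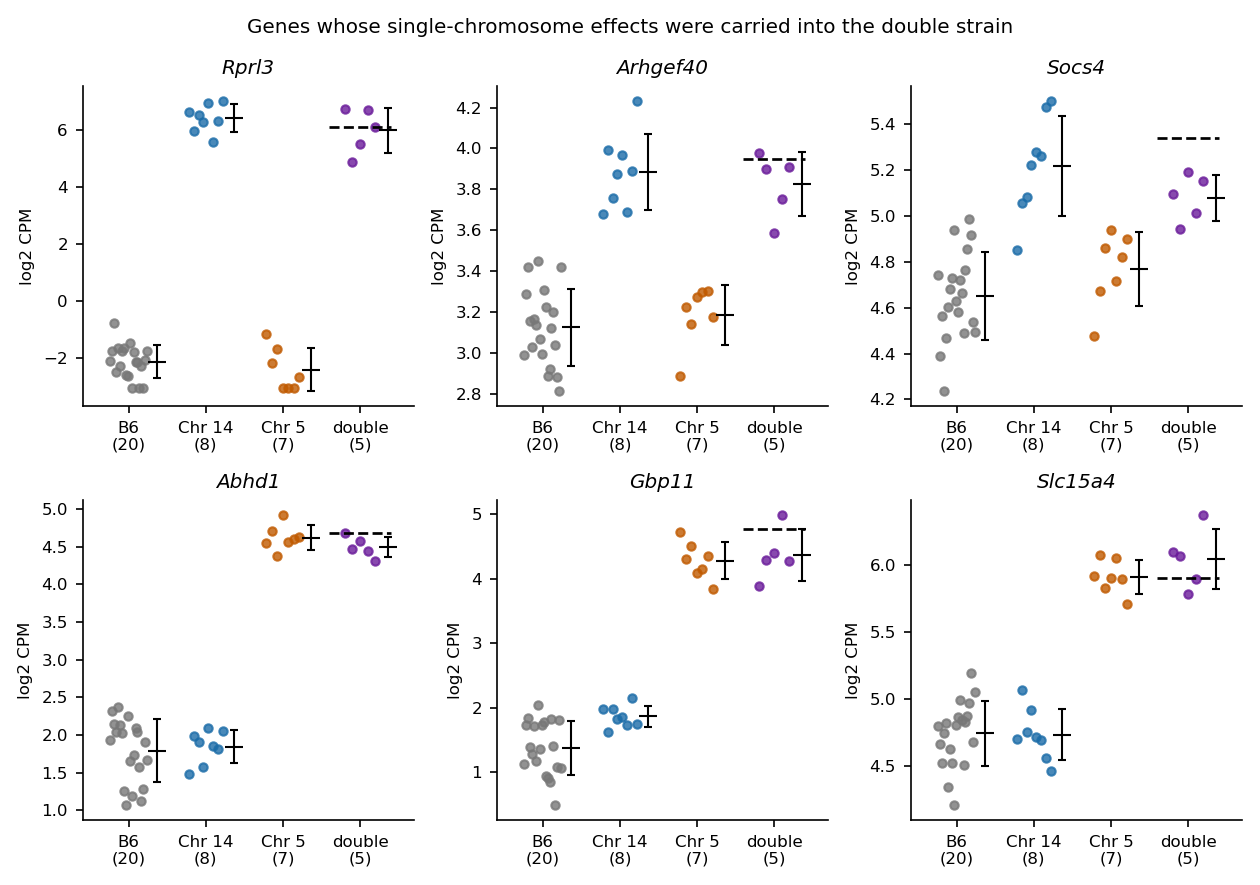
Level (log2 CPM, with a prior count of 2) of 6 genes in every mouse of the 4 strains, with group mean and SD as bars and the number of mice under each group. The dashed line is the sum of both single effects on unadjusted means; Rprl3, Arhgef40 and Socs4 are high in both strains with chromosome 14, and Abhd1, Gbp11 and Slc15a4 in both strains with chromosome 5.

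Against B6, the double strain had 203 genes past the threshold, 71 of them lower, which is 1.53% of the genes tested. Of these, 29 of 430 genes lay on chromosome 14 (6.74%), 77 of 971 on chromosome 5 (7.93%) and 97 of 11888 elsewhere (0.816%). The Chr 14 strain had 2996 genes past the threshold against the same B6 mice (22.5% of all genes, 9.98% higher and 12.6% lower), of which 2857 were off chromosome 14, and the Chr 5 strain had 102 (0.768%). The double strain differed from the Chr 14 strain in 588 genes (4.42% of all, 2.78% higher and 1.65% lower) and from the Chr 5 strain in 18 (0.135% of all, 0.0828% higher and 0.0527% lower). At an unadjusted p under 0.05 the double strain against the Chr 5 strain had 923 genes. These comparisons share mice and their counts are given side by side only. The count against B6 ran from 118 to 350 when each of the 40 mice was left out in turn, with the highest value without the first double mouse.

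The effect of chromosome 14 could be measured in separate mice, as the Chr 14 strain against B6 and as the double strain against the Chr 5 strain. Of the 139 chromosome 14 genes past the threshold in the first contrast, 85 (61.2%) had the same direction in the second, and 9 passed the threshold in it with that direction, while among all 430 genes of the chromosome 240 (55.8%) had the same direction. Off chromosome 14, 1443 of 2857 (50.5%) had the same direction, against 50% of all genes off the chromosome. The 1260 of these that were higher in the Chr 14 strain had a median log2 fold change of 0.3 on B6 and 0.01 on the Chr 5 background, and the 1597 that were lower had -0.25 and 0. In 431 of the 2857 the absolute log2 change on B6 was at least 0.5. Of those, 250 (58%) had the same direction, and 68 kept at least 0.5 of their change on the Chr 5 background. Over the alternative settings and the 5 double mice left out in turn, the share off the chromosome ran from 43.8% without the fifth double mouse to 58.9% without the first.

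For chromosome 5, which could be followed as the Chr 5 strain against B6 and the double strain against the Chr 14 strain, 63 of 75 chromosome 5 genes (84%) kept their direction, against 521 of all 971 genes of the chromosome (53.7%). The 45 higher genes had medians of 0.59 and 0.55, and the 30 lower genes -0.3 and -0.19. Of the 27 genes off the chromosome, 13 (48.1%) had the same direction, against 47% of all genes off it. Genes within a chromosome share its haplotype and these shares are descriptions.

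**Figure D2:**
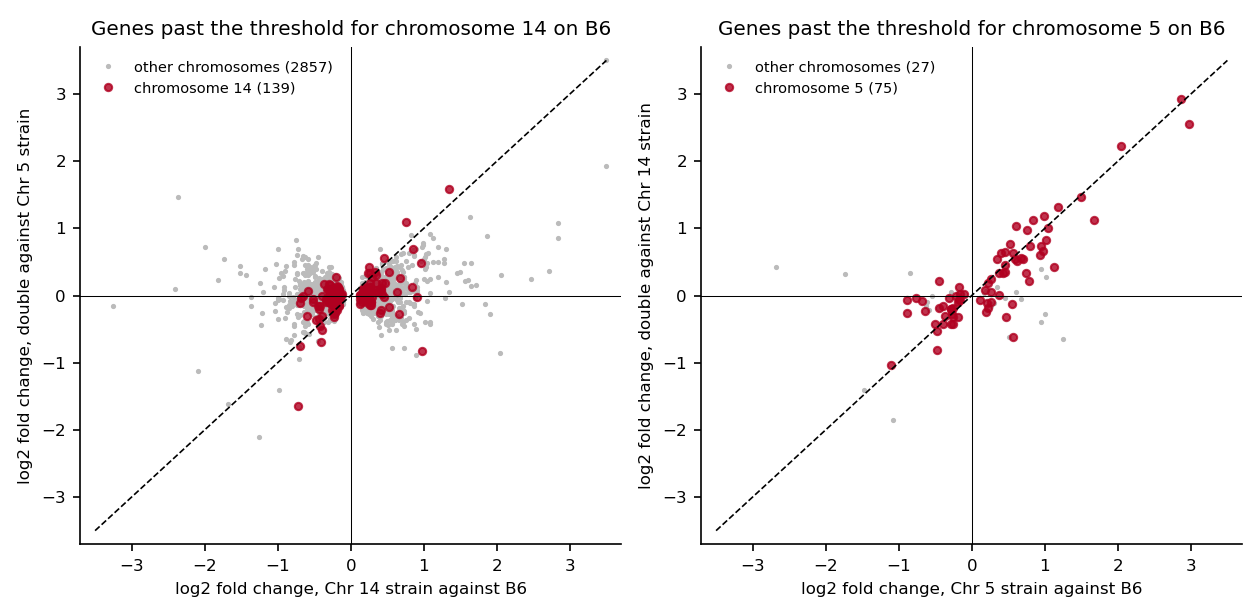
Log2 fold changes of the genes past the threshold for chromosome 14 on B6 (left, 139 on chromosome 14 in red and 2857 elsewhere in gray) and for chromosome 5 on B6 (right, 75 in red and 27 in gray), each against the same chromosome measured in other mice. The dashed line marks equal change, values past 3.5 are drawn at that limit (Rprl3 and Mup17), and the gray points at left are centered near the horizontal zero line.

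The interaction term passed the threshold for 537 genes, 331 positive and 206 negative, which is 4.04% of the genes tested. They were 18 of 430 genes on chromosome 14, 31 of 971 on chromosome 5 and 488 of 11888 elsewhere. The 331 positive genes had a median log2 interaction of 0.41, and beside it medians of -0.3 in the Chr 14 strain, -0.11 in the Chr 5 strain and -0.01 in the double strain, all against B6. The 206 negative genes had -0.44, with 0.31, 0.14 and 0. The members were picked on the first of these values, and the others share their mice. Of the 537 genes, 30.2% passed with the same sign whichever of the 40 mice was left out, and 36 also under all 8 other settings of the fit. For this cross the paper reports far fewer interaction calls, none of them on a substituted chromosome. Why the counts differ was not tested.

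The genes of endoplasmic reticulum (ER) stress and protein secretion had more positive calls than any other list. The ER folds and exports secreted proteins, and its sensors Eif2ak3 (PERK), Atf6 and Ern1 raise chaperones when unfolded protein builds up. Of 30 members, 9 rose above the sum (Hspa5, Dnajb9, Xbp1, Atf6, Eif2ak3, Syvn1, Sel1l, Sec23b and Sec24d) and none fell below it, against 2.49% of all genes with a positive call, and the median term of the list was 0.28 against 0.01 for all genes. The count ran from 5, without the third double mouse or the sixth Chr 5 mouse, to 9 over the left-out mice, and from 3 with 10 surrogate variables to 23 with 5 within-strain components over the other settings.

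Eif2ak3 (chromosome 6, 70844515 to 70905245), the ER stress kinase that slows translation by phosphorylating eIF2 alpha, measured 15.5, 16.3, 19.3, 18.4 and 15 CPM in the double mice. Its lowest, median and highest values were 10.4, 13.1 and 17.7 in B6, 9.97, 11.4 and 13.7 in the Chr 14 strain and 11.5, 12.6 and 14.5 in the Chr 5 strain. Every double mouse was above all mice of both single strains and overlapped only with B6, a separation from the Chr 14 strain that was seen in 2.17% of all genes. The interaction was 0.69 (SE 0.15, adjusted p = 0.00381 by edgeR with Benjamini-Hochberg). Sec23b (chromosome 2, 144556229 to 144590749), a coat protein of the vesicles that leave the ER, measured 31.2, 41.4, 39.5, 32.4 and 35.9 CPM, above the Chr 14 strain at 19.2 to 29 in every mouse, with an interaction of 0.57 (SE 0.13). The transcription factor Atf6 (chromosome 1, 170704674 to 170867771) had 82.3, 107.5, 84.5, 79.5 and 88.8 CPM in the double mice against 53.3 to 73.3 in the Chr 14 strain and 59.2 to 110 in B6, and its interaction was 0.45 (SE 0.1). The double strain did not pass the threshold against B6 for these 3 genes, with log2 fold changes of 0.28, 0.26 and 0.09.

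Against B6, 3 ER genes rose in the double strain, Manf, Creld2 and Syvn1, where 0.993% of all genes rose. Creld2, an ER disulfide-linked chaperone, was 21.3, 33.3, 67.9, 30.4 and 28.3 CPM in the double mice and 9.5, 15.7 and 33.5 at the lowest, median and highest in B6, with a log2 fold change of 0.93 (SE 0.2, adjusted p = 0.00427, edgeR with Benjamini-Hochberg). Manf, a secreted ER stress factor that overlaps Rbm15b on its own strand and Dcaf1 on the other, was 50, 72.8, 120, 77.7 and 70 CPM against 23.8, 41.2 and 85.1, with 0.63 (SE 0.17). The third double mouse was highest for both and the groups overlapped. Their interaction terms, 0.62 (SE 0.32) and 0.53 (SE 0.26), did not pass the threshold.

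Further genes of the secretory route were found among the 36 that passed under every setting, and were picked after these values were seen. Copa, a coat protein of Golgi-to-ER vesicles that overlaps Ncstn on the other strand, measured 155, 166, 164, 151 and 167 CPM in the double mice against 108, 120 and 155 in the Chr 14 strain. Os9, a lectin of ER-associated degradation, measured 181.1, 157.6, 162.99, 145.2 and 158.7 against 75.2, 118.9 and 148.7, and Ganab, the glucosidase II subunit that trims glycans of new glycoproteins, measured 141.1, 139.1, 135.4, 122.9 and 140 against 73.4, 94.4 and 114.5. Only Ganab was separate from the Chr 14 strain in every mouse. Their interactions were 0.39 (SE 0.08), 0.54 (SE 0.11) and 0.47 (SE 0.1). Pigr, the receptor that carries polymeric immunoglobulin into bile, was 756, 883, 838, 969 and 942 CPM, above the Chr 14 strain at 391 to 725, and its term was 0.73 (SE 0.18). Cers6, a ceramide synthase, had the largest positive term of the 36 at 1.22 (SE 0.26), with 29.6, 28.8, 29.7, 34.1 and 19.5 CPM in the double mice against 10.5 to 20.4 in the Chr 14 strain.

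**Figure D3:**
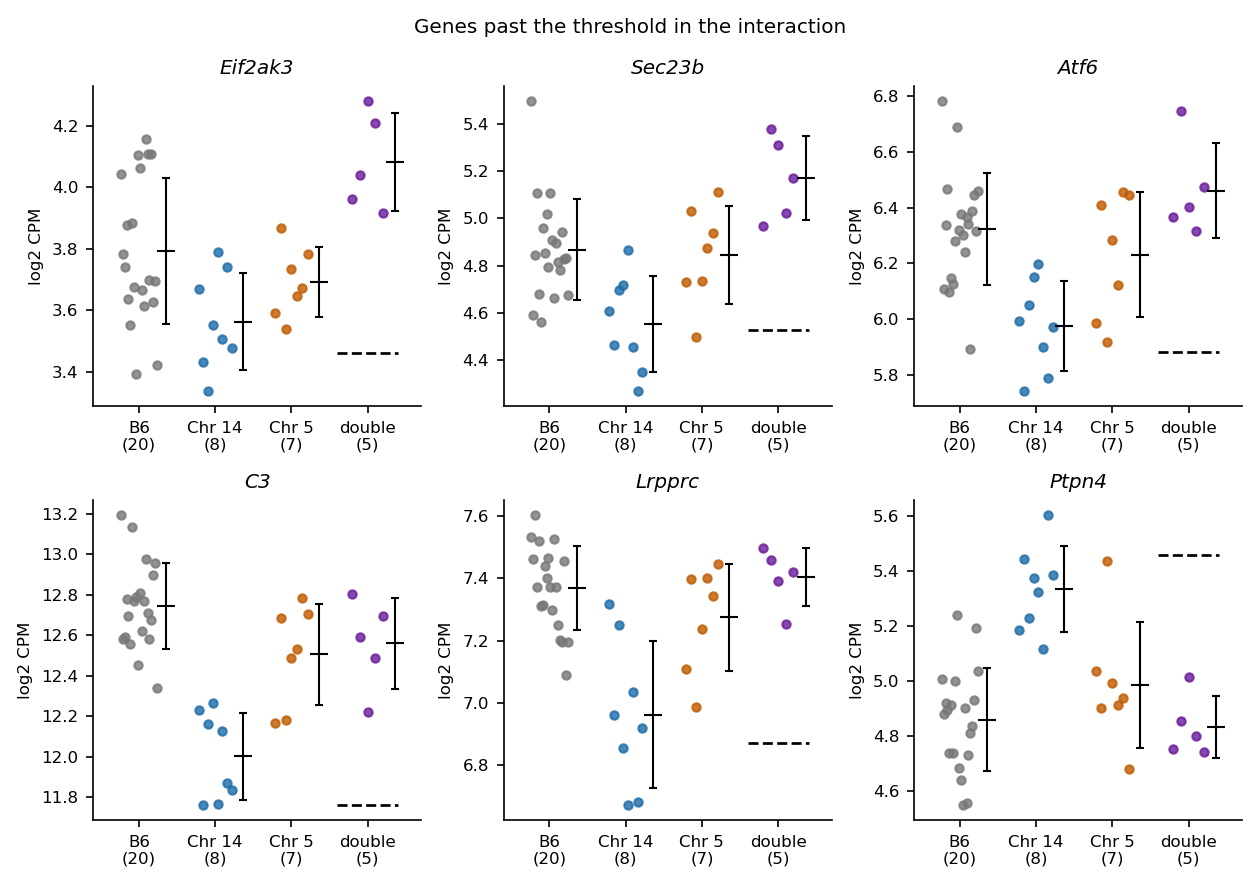
Level (log2 CPM) of 6 genes with an interaction past the threshold in every mouse of the 4 strains, with group mean and SD and, dashed, the sum of both single effects on unadjusted means. The double mice lie above the dashed line for Eif2ak3, Sec23b, Atf6, C3 and Lrpprc and below it for Ptpn4, near the B6 level.

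Secreted plasma proteins of the hepatocyte followed. Of 22 acute-phase proteins, 6 had a positive interaction (Fga, Fgb, Itih3, Serpina3n, Cp and Lbp) and none a negative one, against 2.49% of all genes with a positive call, with a list median of 0.4, and of 29 coagulation and complement genes 5 were positive (F5, which overlaps Gm16548 on the other strand, F7, Serpinc1, Serpinf2 and C3), median 0.24. Over the other settings the acute-phase count ran from 1, in the 4 strains alone without surrogate variables, to 8, and the coagulation and complement count from 1 with 10 surrogate variables to 17 with the within-strain components. The latter was 3 without double mouse 1, Chr 14 mice 7 or 8, Chr 5 mouse 3 or B6 mice 4 or 12, and 8 to 12 without double mice 2, 3 or 5, Chr 14 mice 1, 3 or 6, Chr 5 mouse 7 or B6 mice 11, 18 or 20. Side by side, 11 and 16 members of these lists were lower in the Chr 14 strain than in B6, where 12.6% of all genes were, and none passed in either the Chr 5 or the double strain by edgeR or DESeq2, with 4 and 1 members at an unadjusted p under 0.05 in the double strain and 10 and 2 in the Chr 5 strain. C3 (chromosome 17, 57203970 to 57228136), the central complement component, measured 7160, 6170, 4770, 5750 and 6640 CPM in the double mice, 3470 to 4930 in the Chr 14 strain, 4600 to 7060 in the Chr 5 strain and 5190 to 9380 in B6. The third double mouse lay within the range of the Chr 14 strain and the other 4 above it. Its interaction was 0.75 (SE 0.16, adjusted p = 0.00381, edgeR with Benjamini-Hochberg). Fga, the fibrinogen alpha chain, was 4090 to 4290 CPM in the double mice, overlapping the Chr 14 strain at 2270 to 4360, with a term of 0.77 (SE 0.19). Lbp, the lipopolysaccharide-binding protein, was 132.4 to 144.4 CPM, above the Chr 14 strain at 76.4 to 123.3, with 0.52 (SE 0.13).

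Amino acid catabolism and the urea cycle gave 6 positive terms of 34, among them Cps1, Fah, Uroc1, Aass and Mat1a, median 0.27, where 2.49% of all genes were positive, beside 20 members lower in the Chr 14 strain, median -0.29, where 12.6% of all genes were lower. Cps1 (chromosome 1, 67123026 to 67231259), the mitochondrial enzyme that starts the urea cycle, had 10800, 9160, 11200, 6650 and 10500 CPM in the double mice and lowest, median and highest values of 3190, 6690 and 9850 in the Chr 14 strain, 7060, 7810 and 11600 in the Chr 5 strain and 6140, 10000 and 13600 in B6. The groups overlapped. Its interaction was 0.79 (SE 0.16, adjusted p = 0.0025, edgeR with Benjamini-Hochberg), and the fold against B6 was -0.64 (SE 0.09) in the Chr 14 strain and -0.01 (SE 0.11) in the double strain. Glycolysis had 4 positive terms of 17, among them Gapdh, Pgk1 and Eno1, median 0.28, and gluconeogenesis 2 of 18 (Fbp1 and Slc37a4), median 0.32. Gapdh, often taken as a reference gene and overlapped by Iffo1 on the other strand, was 202.03 to 228.27 CPM in the double mice and 98.8 to 208.55 in the Chr 14 strain, with a term of 0.49 (SE 0.11). Fatty acid oxidation had none of 25 past the threshold in the interaction by edgeR or DESeq2 and 6 at an unadjusted p under 0.05, with a list median of 0.26, while 17 were lower in the Chr 14 strain, median -0.34, again against 12.6% of all genes. With 10 surrogate variables no glycolytic or gluconeogenic gene and 1 gene of amino acid catabolism passed, and with the within-strain components 8, 7 and 17 did. Without double mouse 1 or Chr 14 mouse 7 the counts for glycolysis, gluconeogenesis and amino acid catabolism were 2, 0 and 3, and amino acid catabolism also had 3 without Chr 5 mice 3 or 4. Gluconeogenesis was at 0 without Chr 5 mouse 3, at 4 without double mouse 3 or Chr 14 mouse 1, and at 1 without Chr 14 mice 5 or 8, Chr 5 mice 4, 6 or 7 or B6 mice 4, 5, 12 or 15. Fatty acid oxidation had 1 to 3 genes without double mice 3 or 5, Chr 14 mice 1, 2 or 3 or B6 mice 16 or 20. Over the other settings of the fit its positive count ran from 0 to 8.

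Further positive terms were found in genes of other roles. Lrpprc, which stabilizes mitochondrial mRNA, was 180.4, 175.8, 167.7, 152.4 and 171 CPM in the double mice, 101.8 to 159.3 in the Chr 14 strain and 135.9 to 194.4 in B6, with a term of 0.48 (SE 0.09). Atp2a2, the calcium pump of the ER, lies on chromosome 5 and was 185.2, 181.5, 221.8, 157 and 184 CPM, above the Chr 14 strain at 110 to 145 in every mouse, with 0.56 (SE 0.11). Fndc3a, on chromosome 14, was 75.9 to 97.3 CPM against 58.3 to 75.1 and had 0.48 (SE 0.09), and Hnrnpf, a splicing factor overlapped by 4933440N22Rik on the other strand, had 0.4 (SE 0.07). Utp20 of ribosome assembly and Baz1b of chromatin remodeling had terms of 0.64 and 0.46, with adjusted p-values of 0.000585 and 0.000642 by edgeR with Benjamini-Hochberg. Among 16 iron-handling genes, Tfr2 and Tfrc, both transferrin receptors, were positive at 0.47 and 1.05, and Hfe2 (hemojuvelin) and Bmp6 were negative. Of all genes, 2.49% had a positive and 1.55% a negative call. The negative count of the list ran from 0 to 2 over the left-out mice, and the positive count was 1 without the first double mouse. Tfrc was 83.9, 70.7, 65.8, 77 and 71.1 CPM in the double mice, above the 32.8 to 56.1 of the Chr 14 strain.

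Of the named negative terms, the smallest p-value was that of Akr1c6, a hydroxysteroid dehydrogenase, at -1.13 (SE 0.21), with a median of 560 CPM and a highest value of 873 in the double mice and overlap with every strain. Ptpn4 (chromosome 1, 119652467 to 119837613), a protein tyrosine phosphatase, was 26.8, 28.8, 32.2, 27.7 and 26.6 CPM, below all 8 mice of the Chr 14 strain at 34.5 to 48.6 and within B6 at 23.2 to 37.6, and its term was -0.62 (SE 0.13, adjusted p = 0.00317, edgeR with Benjamini-Hochberg). Fcgr2b, Kdr and Clec4g of 14 liver endothelial markers were negative, where 1.55% of all genes had a negative call. Fcgr2b, the inhibitory Fc receptor of sinusoidal endothelium, was 31.4 to 41.7 CPM in the double mice and 34.9 to 53.4 in the Chr 14 strain, term -0.57 (SE 0.13). The whole endothelial list summed to 670 to 821 CPM in the Chr 14 strain, 609 to 735 in the double strain, 623.3 to 752.3 in the Chr 5 strain and 585 to 757 in B6, and the part of cell makeup in these terms was not tested. Lrat and Colec11 of 16 stellate cell markers were also negative, at -0.46 and -0.42, against the same 1.55% of all genes. That list summed to 722 to 894 CPM in the Chr 14 strain, 743 to 1010 in the Chr 5 strain, 706.5 to 851 in the double strain and 659 to 972 in B6. With no surrogate variables 1 endothelial and no stellate gene had a negative term, and the stellate count ran from 0, without the fifth double mouse, to 2 over the left-out mice. Rmrp, the RNA of RNase MRP, which overlaps Ccdc107 on the other strand, and Snord17 were the negative members of 16 small structured RNAs, at -0.91 and -1.12. All genes had the 1.55% given above, and 10 of that list were higher in the Chr 14 strain, where 9.98% of all genes were. Over the left-out mice the negative count of that list ran from 1 to 4, the latter without the fifth double mouse, and it was 0 with no surrogate variables. The fifth of genes with the shortest exons took 29 to 39.3% of counts in the Chr 14 strain, 26.8 to 32.6% in the double strain and 21.7 to 32.9% in B6, and its part in the terms was not tested. In those genes the interaction had 22 positive and 58 negative calls with a median of -0.053 over all its genes, and in the like number with the longest exons 106 and 31 with a median of 0.036. With no surrogate variables these were 49 and 20 with -0.037, and 77 and 39 with -0.017.

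**Figure D4:**
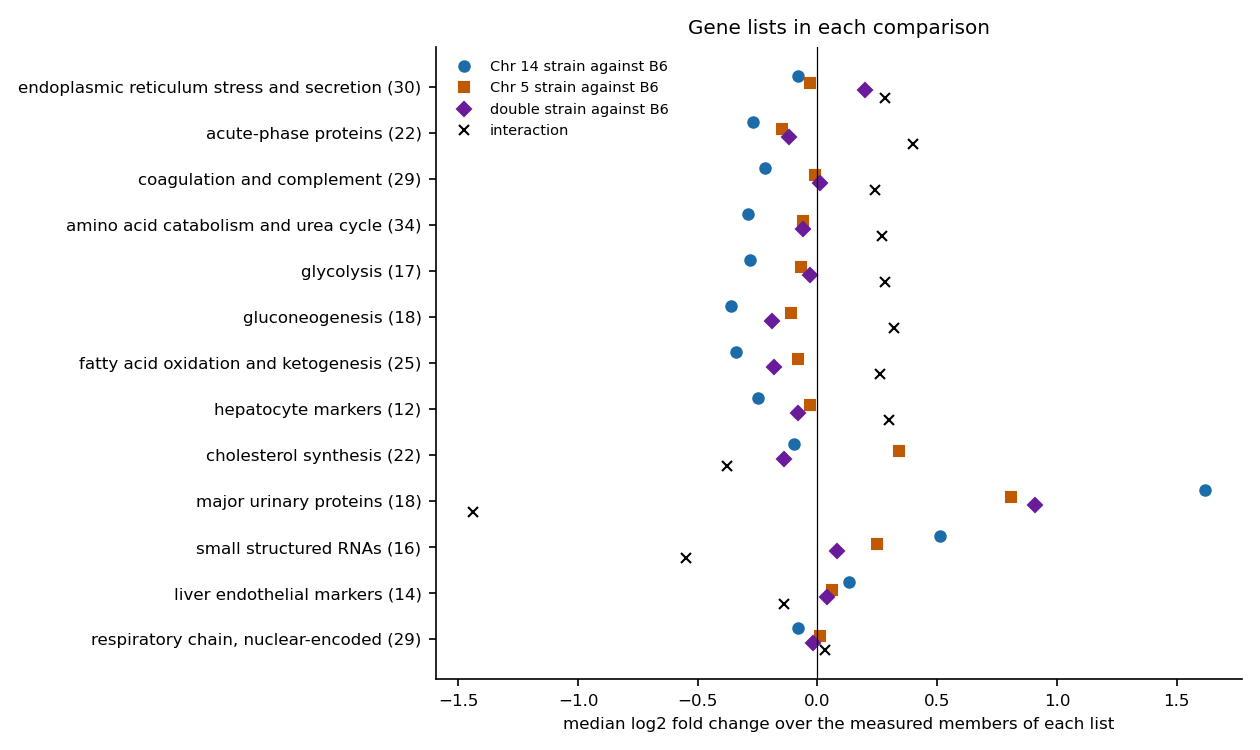
Median log2 fold change over the measured members (number in parentheses) of 13 gene lists in the Chr 14 strain (circles), Chr 5 strain (squares) and double strain (diamonds) against B6, and median interaction term (crosses). The contrasts share mice; for amino acid catabolism, glycolysis, gluconeogenesis, fatty acid oxidation, acute-phase proteins and coagulation and complement the median of the double strain lies nearer 0 than that of the Chr 14 strain, and for cholesterol synthesis (-0.14 and -0.1) it does not.

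Asns fell in the double strain without an interaction past the threshold, and was the gene in which the study examined this cross by RT-qPCR. Asparagine synthetase makes asparagine from aspartate and glutamine, and amino acid shortage raises it through ATF4, which binds an amino acid response element near its start. The promoter window from RefSeq (GRCm38.p6, minus strand, chr6:7693160-7693459, 250 bases before to 50 after the start) is shown with that element, TGATGAAAC, in capitals. A search of both strands found it in 62 of 27025 genes with such a window (0.229%), and among 25 genes of the ATF4 list only in Asns. Only these exact letters were searched, so other forms of the element, or elements outside the window, would be missed.
Asns: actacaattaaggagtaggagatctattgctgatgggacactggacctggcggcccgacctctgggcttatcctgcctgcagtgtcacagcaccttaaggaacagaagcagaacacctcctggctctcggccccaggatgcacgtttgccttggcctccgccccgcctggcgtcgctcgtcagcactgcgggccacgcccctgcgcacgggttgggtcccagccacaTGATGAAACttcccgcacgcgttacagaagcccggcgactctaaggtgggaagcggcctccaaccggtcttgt
Asns fell in both single strains and further in the double strain. It measured 1.67, 1.97, 4.72, 0.407 and 3.49 CPM in the double mice, where 6 to 82 reads were counted, and lowest, median and highest values were 2.8, 7.63 and 10.5 in the Chr 14 strain, 3.68, 6.59 and 11.3 in the Chr 5 strain and 7.36, 15.7 and 54.8 in B6. Every double mouse was below every B6 mouse, which was the case, in either direction, for 20 genes (0.151%). The log2 fold changes against B6 were -1.68 (SE 0.32) in the Chr 14 strain, -1.47 (SE 0.33) in the Chr 5 strain and -3.07 (SE 0.46) in the double strain, with an adjusted p of 1.86e-06 by edgeR with Benjamini-Hochberg for the last. The interaction was 0.07 (SE 0.63), with a 95% interval of -1.17 to 1.31 on the log2 scale. That interval is too wide to tell additivity from a departure in either direction. Of 23 measured ATF4 genes, Asns fell and Psph rose against B6 in the double strain, where 0.534% of all genes fell and 0.993% rose. Both also passed with these directions in the Chr 5 strain, where 0.316% of all genes fell and 0.452% rose. Psph lies on chromosome 5 itself, where 45 of 971 genes rose in the Chr 5 strain and 50 of 971 in the double strain. The Chr 5 strain was compared with the same B6 mice.

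Cholesterol synthesis went the other way, with effects seen in the Chr 5 strain and not in the double strain. Of 22 genes, Sqle, Fdps, Cyp51, Mvk and Msmo1 rose in the Chr 5 strain, where 0.452% of all genes did. Cyp51 and Mvk lie on chromosome 5 itself, where 45 of 971 genes rose, against 15 of 11888 on chromosomes other than 14 and 5. None of the 22 passed in the double strain against B6 by edgeR or DESeq2 (4 at an unadjusted p under 0.05). Sqle, Cyp51 and Msmo1 had negative interactions (list median -0.38), against 1.55% of all genes. Msmo1, a sterol demethylase, was 22, 21.5, 27.3, 22.7 and 36 CPM in the double mice, 24.2, 54.2 and 111 at the lowest, median and highest in the Chr 5 strain and 18.6, 26.8 and 47.8 in B6. The Chr 5 strain was spread over the widest range, and 3 of the 5 double mice lay below it. The interaction was -1.27 (SE 0.35, adjusted p = 0.0228, edgeR with Benjamini-Hochberg). Cyp51, lanosterol demethylase, lies on chromosome 5 and overlaps Akap9 on the other strand. It was 12.1 to 17.9 CPM in the double mice and 16.3 to 50.3 in the Chr 5 strain, with a log2 fold change of -1.18 (SE 0.27, adjusted p = 0.00707, edgeR with Benjamini-Hochberg) between these strains. Without the first double mouse or the first Chr 5 mouse no gene of the list had an interaction past the threshold. It was 1 gene without double mice 2 or 4, Chr 14 mouse 7 or Chr 5 mouse 2, 5 without Chr 14 mouse 1 and 6 without B6 mouse 1.

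The largest terms were found in genes that varied most between mice. Major urinary proteins are pheromone carriers of male liver under growth hormone control. In the Chr 14 strain 17 of 18 measured members rose (median 1.62), where 9.98% of all genes did. The interaction was negative for 5 (Mup1, Mup6, Mup7, Mup9 and Mup10), against 1.55% of all genes, and the list median was -1.44. The Mup genes are near-identical copies, so that their reads cannot be assigned with certainty. Mup9 was 1.85, 15.2, 11.6, 9.16 and 12.4 CPM in the double mice, with 3.56 to 36.2 in the Chr 14 strain and 0.939 to 9.51 in B6, and Mup7 ran from 47.6 to 1480 in the double mice. The first double mouse was the lowest for both, and without it, or with no or 10 surrogate variables, no Mup gene passed. The count was 1 to 3 without Chr 14 mice 4 or 5 or Chr 5 mice 1 or 3, and 8 to 10 without double mice 3 or 5, Chr 14 mice 1 or 3 or B6 mouse 20. Elovl3, a male-biased fatty acid elongase, had a term of -2.17, with 15.7, 122.8, 63.3, 76.7 and 115.9 CPM in the double mice, of which the first was the lowest, and overlap with every strain. Elovl3, Fmo2, a flavin monooxygenase (1.28), and Lepr, the leptin receptor (1.96), did not pass without that mouse. Against B6, 4 Mup genes rose in the double strain, where 0.993% of all genes rose. Mup17 was among them at 3.42, 112.1, 130.5, 78.1 and 175.8 CPM against 1.19, 4.82 and 99.9 (log2 fold change 3.1, SE 0.61).

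**Figure D5:**
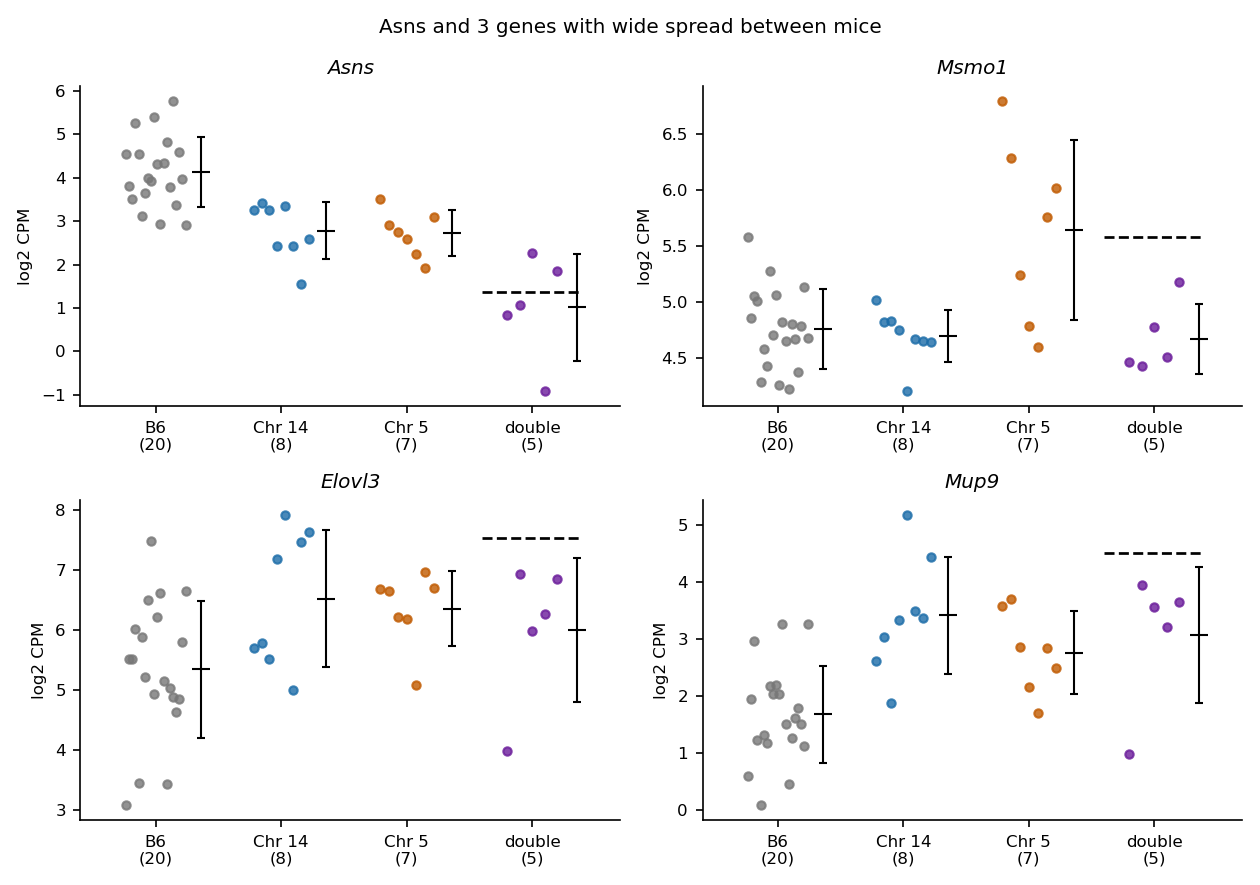
Level (log2 CPM) of Asns, Msmo1, Elovl3 and Mup9 in every mouse of the 4 strains, with group mean and SD and, dashed, the sum of both single effects on unadjusted means. Asns in the double mice lies around the dashed line, while 1 double mouse is lowest for Elovl3 and Mup9.

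Further genes passed the threshold in the double strain against B6. Sdr9c7, a short-chain dehydrogenase, was 25.7, 40.9, 23.6, 40.1 and 37.5 CPM against 5.68, 14.9 and 33.1 in B6, with 1.1 (SE 0.17), beside 1.05 in the Chr 14 strain and 0.61 in the Chr 5 strain. Mlxipl, the carbohydrate-response factor ChREBP, lies on chromosome 5 but was 0.35 higher in both the double and the Chr 14 strain and -0.06 in the Chr 5 strain. H2-Q10, a secreted class I molecule of liver, was -0.31 (SE 0.07) in the double strain and -0.28 in the Chr 14 strain. Mlxipl and H2-Q10 also passed in the double strain against the Chr 5 strain, at 0.41 and -0.35, where only 8 of 18 genes were off chromosome 14. These 3 genes did not pass in the interaction. Cyp3a13, on chromosome 5, fell in the double strain by 0.61 and in the Chr 5 strain by 0.88 on the log2 scale, and had a positive interaction of 0.62 (SE 0.18), as 199.2 to 284.3 CPM in the double mice and 249 to 784 in B6.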

How the data were processed

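The authors made stranded total-RNA libraries of single-end reads, aligned them to mm10 with TopHat2 and then to a genome individualized for A/J variants, and counted reads per GENCODE vM7 gene with HTSeq; the deposited file holds raw counts for 13289 genes that they had filtered for liver expression, in 154 mice. The strand setting of the counting is not given in the sources used here. Groups came from the strain labels and mice were numbered in accession order. Counts were fitted with edgeR 4.0.16 in R 4.3.3 (quasi-likelihood F-test, TMM scaling) to all mice, with the 8 substituted chromosomes, 15 pairs of them and 5 surrogate variables (sva 3.50.0). The SE is the log2 fold change divided by the square root of F. P-values were adjusted by Benjamini-Hochberg separately for genes on and off the substituted chromosomes, at 0.05. The script was tested on simulated data in which only the double strain carried changes, without single-strain effects or unlabelled variation. The members and lists were chosen with earlier results of these data known, in 42 lists of which 810 of 890 entries were measured. Named genes had an average log2 CPM of at least 2 and were the 8 smallest p-values per direction of the interaction, the 3 largest changes per direction, the 4 leading genes of each substituted chromosome and 6 elsewhere for the double strain against B6, up to 3 called members per list, and Asns; Abhd1, Rpph1, Copa, Os9, Ganab, Cers6, Pigr, Manf, Creld2, Mlxipl and H2-Q10 were added after their values were seen. Positions are from GENCODE vM21 on the same build. No libraries were identical. Alternatives were other surrogate variables, DESeq2 1.42.0, other size factors, a filter of 15 counts in 75% of mice, the 4 strains alone, and each mouse left out; those for mice outside the double strain were added after seeing the data. Some genes named by this rule are not reported here.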

Additional observations from a re-analysis of the deposited data

Results flagged for a closer look

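Over the named genes in the groups of 5 to 8 mice, 19 group values (6.88%) had a mouse far from the others by Dixon's test, where chance alone marks about 5%. The first double mouse was the low value in all 5 such cases of that strain, with Mup9 at 1.85 CPM (others 9.16 to 15.2), Mup17 at 3.42 (78.1 to 175.8), Mup10 at 500.4 (888 to 1030), Gm13775 at 3.7 (15.5 to 24.9) and Nars, the asparaginyl-tRNA synthetase, at 72.3 (82 to 86.3). In the Chr 14 strain, mouse 5 was high for Mup6 at 14.2 CPM and Creld2 at 38.2 and low for Msmo1 at 18.3, mouse 4 was low for Dnajc22 at 68.6, mouse 6 for Rmrp at 637 and mouse 1 for Clec4g at 50.5. In the Chr 5 strain, mouse 1 was low for Arhgef40 at 7.28 and Rbm5 at 53.5 and high for Colec11 at 48.1, mouse 6 was high for Sdr9c7 at 37.9 and low for Rps2 at 117.3, mouse 5 was low for Elovl3 at 33.9, mouse 3 high for Ccdc122 at 9.29 and mouse 7 high for Gapdh at 232.02.

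The interaction term, by which the effect of chromosome 14 is compared between the B6 and the Chr 5 background, passed the threshold in 537 genes. Of these, 36 also passed in every other setting and without each mouse in turn. Among the positive log2 terms were Utp20 at 0.64, Hnrnpf at 0.4, Fndc3a at 0.48, Baz1b at 0.46, Cps1 at 0.79, Atp2a2 at 0.56, Lrpprc at 0.48, Lepr at 1.96 and Fmo2 at 1.28. Among the negative ones were Akr1c6 at -1.13, Pea15a at -0.65, Sh3bgrl at -0.53, Ptpn4 at -0.62, Nadk2 at -0.38, Dnajc22 at -0.33, Aadac at -0.49, Yaf2 at -0.59, Mup7 at -2.9, Mup9 at -2.23 and Elovl3 at -2.17. Lepr, Fmo2, Mup7, Mup9 and Elovl3 did not pass without the first double mouse.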

How the results depend on the processing

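Counts of genes past the threshold moved with the surrogate variables and with single mice, and the cause was not tested. Low counts limit Asns in the double mice, with 6 to 82 reads. The interaction had 123 genes with 10 surrogate variables (113 of them among the 537), 1663 with 5 within-strain components, 303 with 15 counts in 75% of mice and 160 in the 4 strains alone without surrogate variables, and 254 to 874 over the 40 left-out mice (254 without double mouse 1 or Chr 14 mouse 7, 275 and 340 without Chr 5 mice 3 and 6, 874 without Chr 14 mouse 1). The DESeq2 Wald test gave 609, of which 528 were shared. The double strain against B6 had 702 with the within-strain components and 105 in the 4 strains without surrogate variables, and 118 to 350 over left-out mice (350, 133, 118 and 120 without double mice 1, 3, 4 and 5). The Chr 14 strain against B6 had 792 with 10 surrogate variables, and 2243 to 3477 over left-out mice. The Chr 5 strain against B6 had 64 without surrogate variables, 265 with the within-strain components, 40 and 57 in the 4 strains with none and with 2, and 56 to 126 over left-out mice (56 without Chr 5 mouse 1). The double against the Chr 14 strain had 1531, 44 and 2901 with none, with 10 and with the within-strain components, 1148 and 1475 in the 4 strains, and 246 to 1115 over left-out mice (299 without double mouse 1, 1115, 950, 246 and 346 without Chr 14 mice 1, 6, 7 and 8, 305 and 382 without B6 mice 4 and 12). The double against the Chr 5 strain had 9, 30, 7 and 8 without surrogate variables, with the within-strain components and in the 4 strains, and 9 to 23 over left-out mice (11, 9 and 11 without double mice 2, 3 and 4). Of the named genes past the threshold in the interaction, only Rbm5 turned, from 0.22 to -0.02 without surrogate variables, to -0.03 with the within-strain components and to -0.02 in the 4 strains without surrogate variables. The term of Asns, which did not pass, also changed sign, at -0.04 with 10 surrogate variables. No paired analysis was possible because the labels carry no replicate numbers.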
